A study of Rattus norvegicus with 6 samples.

Results

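Cardiac transcription factors are described here through 9 genes, Gata4, Gata6, Nkx2-5, Tbx5, Tbx20, Hand1, Hand2, Srf and Myocd, which were chosen by gene symbol from the 40456 genes of the deposited count table. All 9 symbols were present in the table. The libraries came from H9c2, a wild-type rat cardiomyoblast line derived from embryonic heart and used as a culture model of muscle cells. All 6 libraries were made from cells kept for 5 days in 1% serum with 1 µM retinoic acid added each day, and then transfected for 24 h with a gapmer at 25 nM. A gapmer is a short antisense oligonucleotide with locked nucleic acid ends that recruits RNase H to the RNA strand it pairs with, which is then cleaved. In 3 libraries, called control, the gapmer was a negative control sequence, and in the other 3, called Tug1 knockdown, it was directed against the long non-coding RNA Tug1. Each group rests on 1 oligonucleotide in 1 cell line. The labels number the libraries within a group but do not say that they came from separate cultures, so p-values measure the spread between these libraries, which may be technical.

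These factors form much of the core regulatory network of the heart. GATA4 and GATA6 are zinc finger proteins, NKX2-5 is a homeodomain protein, TBX5 and TBX20 are T-box proteins, and HAND1 and HAND2 are basic helix-loop-helix proteins. They bind enhancers of sarcomere, channel and natriuretic peptide genes together and regulate each other during heart formation. SRF binds CArG boxes and works with coactivators, among them myocardin, the product of Myocd, which is restricted to heart and smooth muscle.

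The agents and the upstream sequences of the members that bear on the results are shown first. The 16-base gapmers are printed 5′ to 3′ as the labels give them, in lower case throughout, because they are the labelled difference between the groups.
Tug1 gapmer: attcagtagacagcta
negative control gapmer: gctcccttcaatccaa
Upstream sequences came from RefSeq (GRCr8), which held a promoter for 7 of the 9 genes, Gata4 and Myocd being the others. The 150 bases before the first annotated base of Srf (GRCr8, chr9:21923900-21924049, plus strand) are shown because Srf is known to bind its own promoter. Capitals mark the 2 CArG boxes found.
Srf: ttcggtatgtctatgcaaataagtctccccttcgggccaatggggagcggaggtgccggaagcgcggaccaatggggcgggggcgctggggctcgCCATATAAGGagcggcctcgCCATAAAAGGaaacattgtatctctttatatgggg
The boxes lie 55 to 46 and 35 to 26 bases before that base. The RefSeq promoter table takes a Srf start 26 bases further downstream, from which the boxes begin 81 and 61 bases away. The 250 bases before Hand2 (GRCr8, chr16:37931489-37931738, minus strand) are shown because Hand2 fell with Gata6. Capitals mark, from the left, 2 E-boxes (CANNTG, the letters bound by helix-loop-helix proteins) and 1 match to GATAA on the other strand.
Hand2: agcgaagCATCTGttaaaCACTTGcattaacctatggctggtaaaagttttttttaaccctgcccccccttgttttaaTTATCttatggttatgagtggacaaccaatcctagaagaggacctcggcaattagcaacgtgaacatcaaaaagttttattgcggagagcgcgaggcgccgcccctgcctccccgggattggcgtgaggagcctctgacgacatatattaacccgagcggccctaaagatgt
In a window of 250 bases before the start in the promoter table, searched on both strands, a CArG box was found in 1.5% of 33469 RefSeq promoters, GATAA in 23.5% and CANNTG in 65.5%. Among the 7 members with a promoter, 1 (Srf) held a CArG box and 2 (Hand2 and Tbx5) held GATAA. The T-box letters GGTGTGA, present in 3.22% of promoters, were found in 0 of the 7. A match describes the letters only.

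The libraries held 12978548 to 13544337 counts each. Levels are given as CPM, counts scaled to library size with TMM factors, and 1 CPM corresponded to 12.9 to 13.8 counts. A gene with 3 counts or fewer in a library was taken as not detected there, a limit of 0.217 to 0.232 CPM that covers counting error only. Tug1 was lower in every knockdown library than in every control library and reached 22.0% of the control level, so the libraries followed their labels. Genes were tested with edgeR's quasi-likelihood test over all 14216 genes that passed the expression filter and were called at a Benjamini-Hochberg adjusted p under 0.05. Because edgeR called 61.7% of all tested genes, 30.8% as higher and 30.9% as lower, a call by itself sets no gene apart here. Fewer cells expressing a gene and less RNA per cell cannot be told apart in these bulk libraries.

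The first question was which of the 9 factors these cells express at all. Of the 9 genes, 5 were detected in every library and 4 were at or under 3 counts in every library, so the set split cleanly into expressed and undetected genes. Nkx2-5, an early homeodomain marker of cardiac fate, had 0 counts in each control library and 1 count in total, in knockdown replicate 2. Tbx5, which patterns the atria and left ventricle, had 1 count in control replicate 3 and 1 in knockdown replicate 3. Tbx20, a T-box factor of chamber and valve development, had 2 counts, both in control replicate 1. Hand1, the left-ventricular partner of Hand2, had 1 count, in control replicate 2. No fold change is given for these 4 genes, and a level under the limit of 3 counts per library would not have been detectable.

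**Figure D1:**
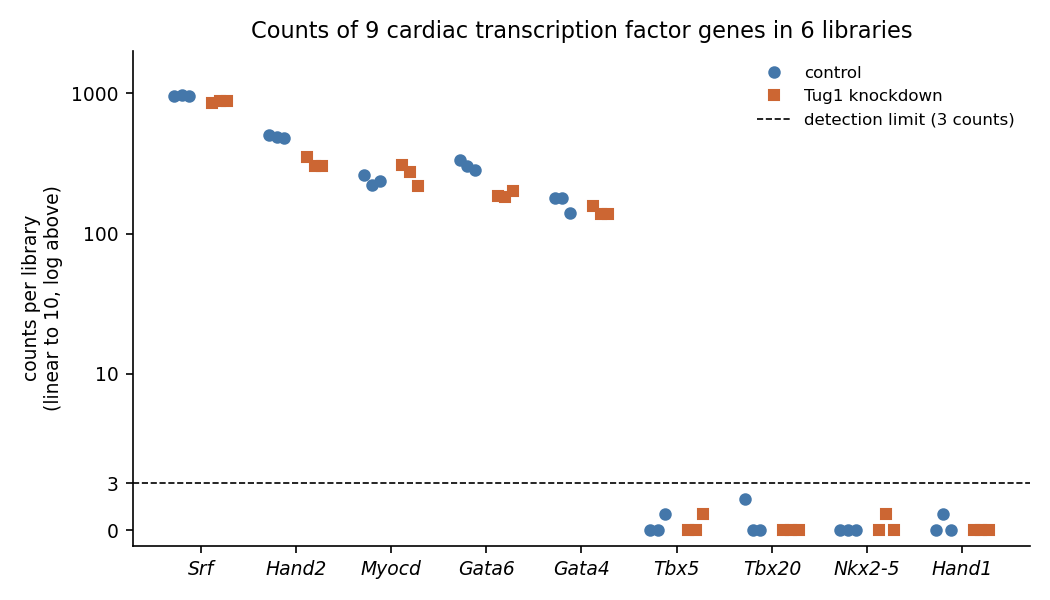
Counts of the 9 genes in each of the 6 libraries, control as circles and Tug1 knockdown as squares, on an axis that is linear to 10 counts and logarithmic above. Srf, Hand2, Myocd, Gata6 and Gata4 lie at 137 counts or more in every library, while Tbx5, Tbx20, Nkx2-5 and Hand1 lie at 0 to 2 counts, under the dashed limit of 3.

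The undetected set extended beyond the 9 genes. Of a list of 28 other cardiac lineage factors, 12 were at or under 3 counts in every library, and 11 of these had 0 counts throughout. Among those with 0 counts were Isl1 and Mesp1, which mark cardiac progenitors, Gata5, the third cardiac GATA gene, and Irx4, a ventricular factor. These genes, and the other factors singled out in this paragraph, are named after their values were seen. Other T-box genes were expressed: Tbx2 was at 33.6 ± 4.36 CPM, Tbx3 at 23.5 ± 1.97 CPM and Tbx18 at 50.8 ± 3.94 CPM in controls (SD, n = 3). Among the myocyte enhancer factors, which work with GATA and myogenic proteins, Mef2a was at 189 ± 9.16 CPM and Mef2c at 50.1 ± 4.12 CPM in controls (SD, n = 3).

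The labels call the cells cardiomyocytes, and this was compared with markers. Of 11 cardiomyocyte markers, 3 (Tnnt2, Actc1 and Myl2) had enough counts to be tested. The others, which include the defining contractile and peptide genes, were near or at the limit: summed over the 6 libraries, Nppb had 0 counts, Myh6 2, Myh7 3, Ryr2 3, Nppa 7, Tnni3 8, Myl7 12 and Myl3 15. Of 11 skeletal muscle markers, 10 were tested. Myog, the myogenic factor of terminal differentiation, was at 275 ± 4.39 CPM and Myod1 at 59.6 ± 3.24 CPM in controls (SD, n = 3). On these short lists skeletal muscle markers were thus detected more widely than the cardiomyocyte ones. On a longer list of 32 cardiomyocyte genes, 20 were tested and 12 were not. Tnnt2 was at 348 ± 17.9 CPM, Casq2 at 360 ± 6.55 CPM and Ankrd1 at 708 ± 42.9 CPM in controls (SD, n = 3). These 3 genes were picked after their values were seen. The markers were thus mixed with respect to the label.

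Among endothelial markers, 4 of 7 were at or under 3 counts in every library, with Erg at 0, and their summed level was 3.01 to 4.62 CPM in control and 3.10 to 4.20 CPM in knockdown libraries. Leukocyte markers, 5 in all and Ptprc at 0, summed to 11.1 to 12.8 CPM in controls and 15.7 to 17.5 CPM after knockdown. Fibroblast markers, 8 in all, summed to 43740 to 45090 CPM in controls and 41120 to 43920 CPM after knockdown. Smooth muscle markers, 6 in all, summed to 1048 to 1167 CPM in controls and 1148 to 1336 CPM after knockdown. All 6 are also in the list of SRF targets of the MRTF and myocardin class described below. The leukocyte sum moved with the groups, and so did that of the 11 skeletal muscle markers. The latter went from 933.8 to 941.8 CPM in controls to 1365 to 1451 CPM after knockdown. Of 10 tested skeletal muscle markers, 9 were higher and 1 lower. Of 7 tested fibroblast markers, 2 were higher and 3 lower. Of 6 tested smooth muscle markers, 3 were higher and 1 lower, and of 2 tested leukocyte markers 1 was higher. Among all tested genes 30.8% were higher and 30.9% lower, 61.7% in all. The part of these markers in the results that follow was not tested.

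The main comparison asked how the 5 detected factors differed between Tug1 knockdown and control cells. Gata6, Hand2 and Srf were lower after knockdown, at 59.5%, 62.5% and 86.6% of control. Gata4 and Myocd were not called. The 3 calls of 5 tested genes (60.0%) stand beside the 61.7% of all tested genes, so the share called was near the background. The control and knockdown libraries did not overlap for the same 3 genes, against 65.6% of all tested genes. The median log2 fold change of the 5 genes was -0.26, against 0.00 over all tested genes.

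Gata6 directs endoderm and outflow tract development and acts in part interchangeably with Gata4. Its level was 25.7, 23.4 and 21.6 CPM in control replicates 1 to 3 and 13.3, 13.5 and 15.2 CPM in knockdown replicates 1 to 3. All 3 knockdown libraries lay below the lowest control library. The mean fell from 23.6 ± 2.01 to 14.0 ± 1.05 CPM (SD, n = 3), or 59.5% of control. On the log2 scale the change was -0.75 (SE 0.0957, edgeR adjusted p 4.38e-07). A larger absolute change was found in 17.8% of the tested genes.

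Gata4, the zinc finger factor most used to define and to program cardiac fate, was at 13.7, 13.8 and 10.7 CPM in control replicates 1 to 3. After knockdown it was at 11.3, 10.1 and 10.4 CPM in replicates 1 to 3. The groups overlapped, because control replicate 3 lay within the range of the knockdown libraries. The log2 fold change was -0.26 (SE 0.12, 95% interval -0.51 to -0.01) with an edgeR adjusted p of 0.0627, which missed the threshold. Without control replicate 3 the value was -0.37 and passed (edgeR adjusted p 0.0119). With an offset that removes each library's trend of log2 level on genomic span it was -0.40 and also passed (edgeR adjusted p 0.00641). Gata4 was not called in 13 of 16 alternatives. Among these were the fits without control replicate 1 (edgeR adjusted p 0.208) and without control replicate 2 (edgeR adjusted p 0.203).

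The paralogous pair was also compared within libraries, where library size cancels. Gata6 had 1.70 to 2.02 times the counts of Gata4 in control libraries and 1.18 to 1.46 times after knockdown. Counts of different genes depend on transcript length, so these ratios are compared between groups only. The log2 ratio of the counts went from 0.89 ± 0.12 to 0.40 ± 0.16 (SD, n = 3), a difference of -0.49. A trend on genomic span does not cancel in this ratio. With the offset for it Gata6 was at -0.78 and Gata4 at -0.40, against -0.75 and -0.26 in the fit reported, so the 2 genes lay closer together. All 3 knockdown ratios lay below all 3 control ratios, and the exact permutation test (two-sided) gave p = 0.1, the smallest value that 3 against 3 libraries allow. The other pairs, Hand2 with Hand1 and Tbx5 with Tbx20, could not be compared, since Hand1, Tbx5 and Tbx20 were not detected.

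Hand2 encodes a helix-loop-helix factor of the right ventricle, limb and sympathetic neurons. It was at 38.2, 37.8 and 37.0 CPM in control replicates 1 to 3 and at 25.4, 22.3 and 22.8 CPM in knockdown replicates 1 to 3. The control libraries were nearly equal and the knockdown libraries all lay well below them. The mean fell from 37.7 ± 0.637 to 23.5 ± 1.65 CPM (SD, n = 3), or 62.5% of control. On the log2 scale the change was -0.68 (SE 0.0755, edgeR adjusted p 5.55e-08). A larger absolute change was found in 21.5% of the tested genes.

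Srf, the CArG-binding factor shown above with its own pair of boxes, was at 72.4, 75.3 and 73.8 CPM in control replicates 1 to 3. After knockdown it was at 61.5, 64.4 and 66.0 CPM in replicates 1 to 3. The groups did not overlap, but the gap was small. The mean fell from 73.8 ± 1.49 to 64.0 ± 2.26 CPM (SD, n = 3), or 86.6% of control, which gave -0.21 on the log2 scale (SE 0.0559, edgeR adjusted p 0.00269). With the offset for genomic span the value was -0.12 and no longer passed (edgeR adjusted p 0.0649). A larger absolute change was found in 67.7% of the tested genes.

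Myocd, the heart and smooth muscle coactivator of Srf, was at 20.1, 17.0 and 18.2 CPM in control replicates 1 to 3. In knockdown replicates 1 to 3 it was at 22.1, 20.2 and 16.5 CPM, so the knockdown libraries spread on both sides of the controls. The log2 fold change was 0.09 (SE 0.104, 95% interval -0.13 to 0.31) with an edgeR adjusted p of 0.470. The sign was not stable: without knockdown replicate 1 the value was -0.0022, and with the offset for genomic span it was -0.0912.

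**Figure D2:**
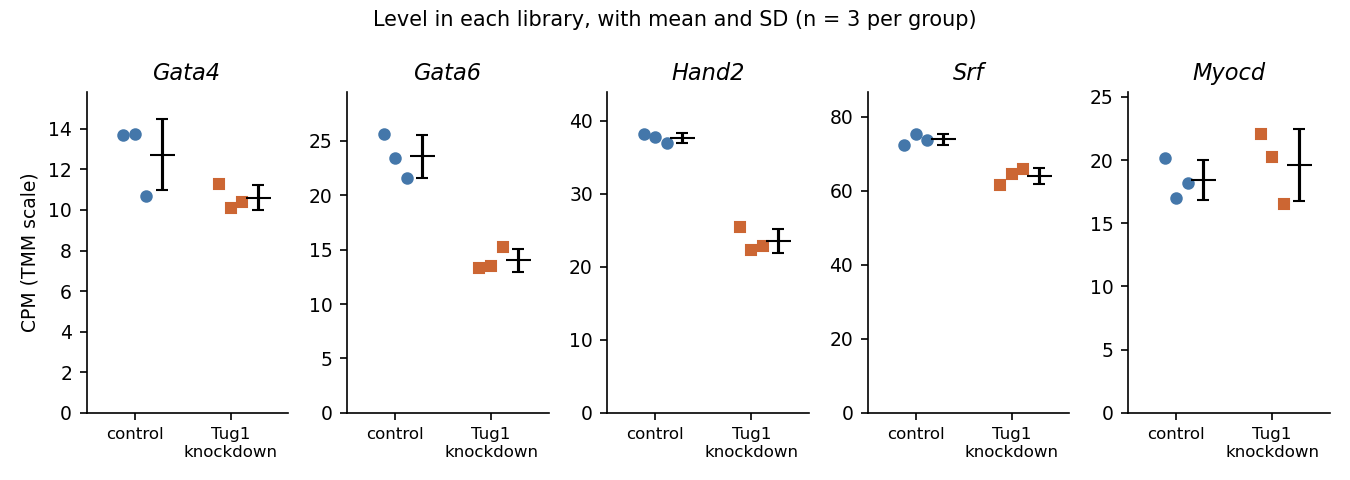
CPM on the TMM scale of the 5 detected genes in each library, with the mean and SD of each group (n = 3) beside the points and axes that start at 0. The knockdown points lie below all control points for Gata6, Hand2 and Srf, and the groups overlap for Gata4 and Myocd.

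The offset is a smooth function of genomic span, introns included, so how it moved each member followed from that span by construction. In genomic span Hand2 was at percentile 7.81 of the tested genes, Srf at 24.9, Gata6 at 60.9, Gata4 at 81.3 and Myocd at 86.3. The offset moved the short genes Hand2 (from -0.68 to -0.51) and Srf (from -0.21 to -0.12) up and the longer genes Gata6 (from -0.75 to -0.78), Gata4 (from -0.26 to -0.40) and Myocd (from 0.09 to -0.09) down. With it the called members were Gata4, Gata6 and Hand2, 3 of the 5 tested. Over all 13084 genes tested with the offset, 8127 were called, 3967 as higher and 4160 as lower. Gata6 and Hand2 were called as lower in all 16 alternatives, with log2 fold changes from -0.81 to -0.69 and from -0.74 to -0.51.

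**Figure D3:**
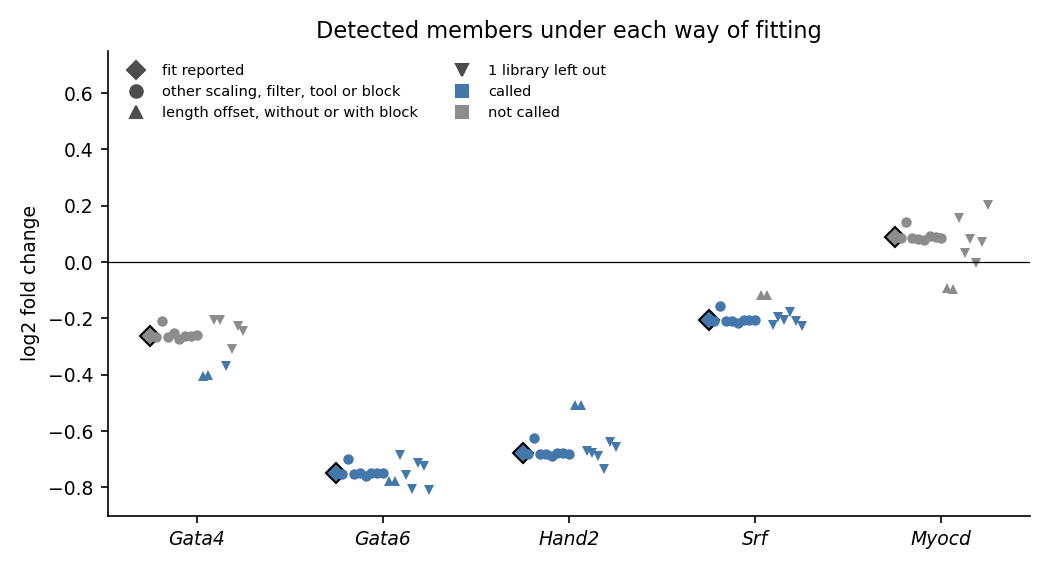
Log2 fold change of the 5 detected genes in the fit reported (diamond) and in 16 alternatives, blue where the gene was called and grey where it was not. Gata6 and Hand2 stay between -0.81 and -0.51 and are called throughout, Srf loses its call with the length offset (triangles), Gata4 gains one there and without control replicate 3, and Myocd crosses 0.

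The genes beside the detected members differed in level and direction. By the GRCr8 gene order, Gata4 was overlapped by LOC102548615, which had 4 counts over the 6 libraries, and Myocd by LOC120095121, which had 1. The non-coding gene next to Gata6, LOC100909782, averaged 1.05 ± 0.119 CPM in control and 0.689 ± 0.0308 CPM in knockdown libraries (SD, n = 3). Its log2 fold change was -0.60 (SE 0.351) and was not called (edgeR adjusted p 0.142). The non-coding gene next to Hand2, LOC103693946, was at 3.69 ± 0.206 and 3.08 ± 0.257 CPM (SD, n = 3) and was not called either (log2 fold change -0.26, edgeR adjusted p 0.250). Among coding genes, Srf lies between Ptk7, a receptor kinase gene that was lower (-0.18, edgeR adjusted p 0.00619), and Cul9, a cullin gene that was higher (1.36, edgeR adjusted p 0.00448) at 0.513 ± 0.248 CPM in controls and 1.33 ± 0.239 CPM with Tug1 reduced (SD, n = 3). Near Gata4, Fdft1, a sterol synthesis gene, was higher (0.68, edgeR adjusted p 1.26e-10), and near Myocd, Arhgap44 was higher (1.42, edgeR adjusted p 2.36e-09). Beside the undetected Nkx2-5, Stc2 was lower (-1.12, edgeR adjusted p 3.83e-08) and Bnip1 higher (0.42, edgeR adjusted p 0.0105). These neighbours were looked up after the members' values were known.

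For each called member, the genes with the most similar profile over the 6 libraries were found among 9005 genes at 10 CPM or more. Likeness was the mean absolute difference of log2 CPM after centring each gene on its control mean. Closest to Gata6 were Gmip (0.0221) and Pus3 (0.033), and 185 genes lay within 0.1. Closest to Hand2 were Tmem120a (0.023) and Wee1 (0.0312), with 515 genes within 0.1. Closest to Srf were Tmem184b (0.00914) and Rtcb (0.0152), with 1908 genes within 0.1. Profiles such as these were common in the table.

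The partner proteins of the detected factors were compared next. Of 32 cofactors and partner factors, 30 were tested and 21 called (70.0%, against 61.7% of all tested genes), 12 higher and 9 lower, with a median log2 fold change of 0.10. With the offset for genomic span the split was 8 higher and 12 lower, against 3967 and 4160 of all 13084 genes tested with it. The balance of directions in this list thus depended on that choice.

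The Friend of GATA proteins bind GATA4 and GATA6 and repress or activate with them. Zfpm1 had a control mean of 30.9 ± 5.97 CPM and a knockdown mean of 63.8 ± 2.05 CPM (SD, n = 3). It rose by 1.04 on the log2 scale (SE 0.09, edgeR adjusted p 9.18e-10). Zfpm2, the cardiac member, was at 13.3, 11.6 and 12.2 CPM in control replicates 1 to 3 and 19.5, 20.4 and 21.5 CPM in knockdown replicates 1 to 3. It rose by 0.73 on the log2 scale (SE 0.0969, edgeR adjusted p 8.30e-07). Zfpm2 is a very long gene, at percentile 98.9 of genomic span, and with the length offset its rise was 0.32 (edgeR adjusted p 0.00539). The GATA partner genes thus rose while Gata6 fell.

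HAND2 pairs with E proteins, and ID proteins, which lack a DNA-binding region, take E proteins out of such pairs. All 4 Id genes were called as lower, against 30.9% of all tested genes. Id4 averaged 18.2 ± 2.41 CPM in control and 5.60 ± 0.852 CPM in knockdown libraries (SD, n = 3), which gave -1.69 on the log2 scale (SE 0.133). Id1 was at 123 ± 4.55 and 51.4 ± 6.13 CPM (SD, n = 3), with a log2 fold change of -1.26. Id2 (-0.86) and Id3 (-0.71) fell less, and the largest edgeR adjusted p of the 4 was 2.02e-10. The Id genes are short, at percentiles 1.33 (Id1) to 5.20 (Id4) of genomic span. With the length offset their falls were smaller for Id4 (-1.50), Id1 (-1.02) and Id2 (-0.65). Id3 was at -0.49 in the alternative where it fell least. Each Id gene was called as lower in all 16 alternatives. The E protein genes, named after their values were seen, moved little. Tcf4 was at 0.19 and Tcf12 at 0.12, both called as higher but close to the threshold (edgeR adjusted p 0.0411 and 0.0435). Both are very long genes, at percentiles 98.3 and 97.9 of genomic span, and their values with the length offset are not reported here. Tcf3 was at 0.13 with an edgeR adjusted p of 0.0645.

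SRF is directed to different genes by 2 families of partners. The MRTF coactivators carry signals from actin, and the ternary complex factors carry signals from the ERK pathway. Mrtfa fell from 105 ± 6.55 to 85.5 ± 7.49 CPM (SD, n = 3; log2 fold change -0.30, SE 0.0631, edgeR adjusted p 0.000288), and its fall was -0.59 with the length offset. Mrtfb had a log2 fold change of 0.06 (edgeR adjusted p 0.668), with a sign that changed without knockdown replicate 2 (-0.0655) and with the length offset (-0.221). The ternary complex factor genes moved apart: Elk4 rose by 0.82 (SE 0.0596), Elk1 rose by 0.26 (SE 0.0637) and Elk3 was lower at -0.34 (SE 0.0519), with edgeR adjusted p from 5.28e-11 to 0.00112. Hopx, a homeodomain cofactor of SRF, had 2 counts in all libraries together and was not detected.

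**Figure D4:**
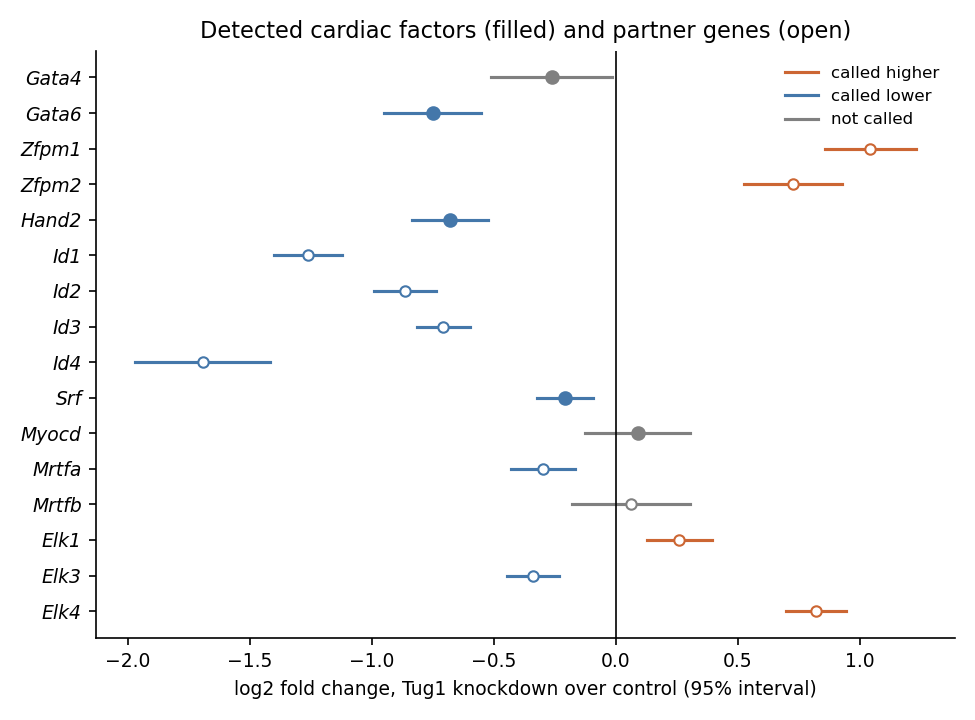
Log2 fold change of the detected cardiac factors (filled) and their partner genes (open) with 95% intervals from edgeR, coloured by call. The 4 Id genes lie between -1.69 and -0.71, Gata6 and Hand2 at -0.75 and -0.68, Zfpm1, Zfpm2 and Elk4 lie between 0.73 and 1.04, and the intervals of Myocd and Mrtfb include 0.

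Genes known as SRF targets were then described in 2 lists. Of 10 targets of the ternary complex class, immediate early genes for the most part, all 10 were tested, 8 were lower and 1 was higher, and the list's median log2 fold change was -1.20. The called share was 90.0%, against 61.7% of all tested genes, of which 30.9% were lower. With the length offset 8 were lower and 2 higher, with a median of -1.01. Of all 13084 genes tested with that offset, 4160 were lower and 3967 higher. Ier2 averaged 111 ± 8.61 CPM in control and 31.3 ± 1.52 CPM in knockdown libraries (SD, n = 3), or -1.82 on the log2 scale (SE 0.0665, edgeR adjusted p 5.23e-16). Fos (-1.53) and Egr1 (-1.37), transcription factors induced within minutes by growth factors, also fell. Nr4a1, an orphan nuclear receptor, rose by 0.37.

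Of 32 targets of the MRTF and myocardin class, which build the actin cytoskeleton and smooth muscle fibres, all 32 were tested, 15 were lower and 8 higher, with a median of -0.09. With the length offset 17 were lower and 8 higher, with a median of -0.20, against 4160 lower and 3967 higher of all 13084 genes. The called share of 71.9% stands beside 61.7% of all tested genes. Tpm4, a non-muscle tropomyosin, fell by 0.97 on the log2 scale (SE 0.0576), from 271 ± 16.3 to 138 ± 11.4 CPM (SD, n = 3). Vcl, which encodes vinculin of adhesion plaques, was at -0.82 (SE 0.0498), and Ccn1, a secreted matrix protein gene, also at -0.82 (SE 0.0742). In the other direction Myh11, the smooth muscle myosin heavy chain, rose from 3.26 ± 0.656 to 6.88 ± 0.725 CPM (SD, n = 3; log2 fold change 1.07, SE 0.179). Lmod1, a smooth muscle actin nucleator, rose by 0.87 (SE 0.107). Cald1, which encodes caldesmon, rose by 0.60 (SE 0.0669) and by 0.30 with the length offset. All these calls had an edgeR adjusted p of 1.67e-05 or less. Actin genes of the list have near-identical copies, and how shared reads were counted was not given in the sources used here.

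A CArG box lay within 250 bases before the start of 3 of the 27 MRTF-class targets with a RefSeq promoter (11.1%). The same held for 2 of the 7 ternary-class targets (28.6%), against 1.5% of all promoters and 1.33% of those of tested genes. Because the lists hold known SRF targets and SRF binds this box, the higher shares are no result of these data. The ternary-class genes were Egr1 and Egr2, both lower. The MRTF-class genes were Actg1 and Cnn2, both lower, and Fhl1, which was not called. Of all tested genes 30.9% were lower. Among tested genes with a promoter, a CArG box was found in 1.5% of higher, 1.48% of lower and 1.04% of not called genes. The box was thus about as frequent in genes that rose as in genes that fell. Egr2, Actg1, Cnn2 and Fhl1 are named here for the match alone.

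Heart muscle genes, which the cardiac factors are known to activate together, were compared last. Of 32 cardiomyocyte genes, 20 were tested and 16 called (80.0%, against 61.7% of all tested genes), 11 higher and 5 lower, with a median log2 fold change of 0.54. With the length offset the median was 0.28, with 12 higher and 5 lower, against 3967 higher and 4160 lower of all 13084 genes. Most called genes of this list were thus higher, and Gata6, Hand2 and Srf were lower. Whether these changes are linked was not tested. Actc1, the cardiac actin that embryonic skeletal muscle also makes, averaged 9.21 ± 0.409 CPM in control and 18.0 ± 1.80 CPM in knockdown libraries (SD, n = 3). Its rise was 0.97 on the log2 scale (SE 0.11, edgeR adjusted p 7.45e-08). Smpx, a small muscle protein gene, rose by 1.00 (SE 0.131), and Myl4, the atrial and embryonic light chain, rose by 0.75 (SE 0.0558). Kcnh2, a potassium channel of repolarisation, was lower at -0.93 (SE 0.136), as were Pln, the phospholamban gene, at -0.68 (SE 0.0999) and Gja5, an atrial connexin, at -0.45 (SE 0.085). The largest edgeR adjusted p among these 6 genes was 7.34e-05. Skeletal muscle markers moved in the same direction as the genes that rose. Of 18 on the longer list, 17 were tested, 12 were higher and 2 lower (82.4% called, against 61.7% of all tested genes), with a median of 0.56. Myog rose by 0.82 (SE 0.0461) and Actn3 by 1.03 (SE 0.115), while Myod1 was lower at -0.32 (SE 0.069) and missed the threshold once the length offset was applied (-0.134).

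Among the 28 other cardiac lineage factors, 16 were tested and 11 called (68.8%, near the 61.7% of all tested genes), 4 higher and 7 lower, with a median log2 fold change of -0.09. With the length offset the split was 3 higher and 10 lower, against 3967 higher and 4160 lower of all 13084 genes tested with it. The forkhead gene Foxc2, of second heart field and vessel development, averaged 15.7 ± 2.33 CPM in control and 3.97 ± 0.625 CPM in knockdown libraries (SD, n = 3). It was at -1.98 on the log2 scale (SE 0.149, edgeR adjusted p 9.05e-11). Foxc1 was at -0.70 (SE 0.0839) and Hey2, a Notch-driven ventricular repressor, at -1.12 (SE 0.147), with edgeR adjusted p of 1.76e-07 and 6.66e-07. Mef2d rose by 0.69 (SE 0.0586) and Nr2f1, a nuclear receptor, by 0.42 (SE 0.0643). The larger edgeR adjusted p of these rises was 5.50e-06.

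**Figure D5:**
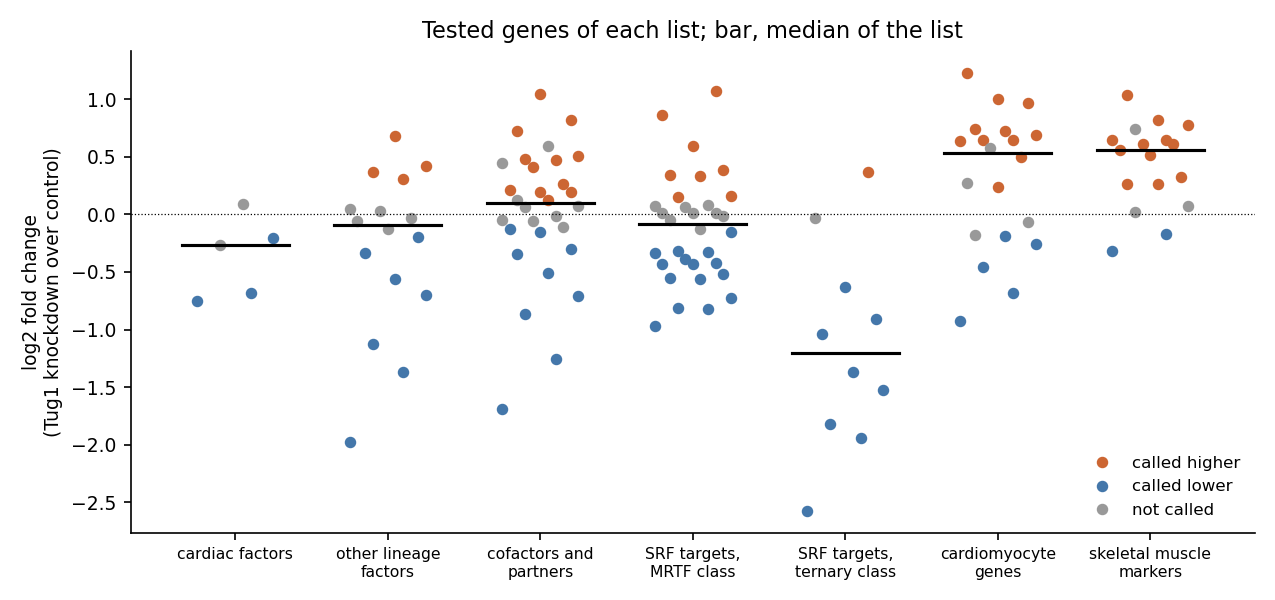
Log2 fold change of every tested gene of 7 lists, coloured by call, with the median of each list as a bar. The medians run from -1.20 for SRF targets of the ternary complex class to 0.56 for skeletal muscle markers, and the 5 detected cardiac factors have a median of -0.26.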

How the data were processed

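The deposited table holds counts in whole numbers for each gene symbol and library, neither scaled nor pooled, as the values show. Per the submitters' processing notes, FastQC 0.11.7, fastp 0.14.1 and STAR 2.5 were used. Per the labels' protocols, stranded poly-A libraries were made from 500 ng of RNA with an integrity number of at least 9. Counting tool, genome build, annotation and use of strand in counting are not given in the sources used here. The table had 0 unnamed entries and 0 columns of other samples.

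The reported model used edgeR 4.0.16 under R 4.3.3 (minimum count 10, minimum total count 15, TMM, quasi-likelihood test, prior count 0.125, no block) on all 6 libraries, with Benjamini-Hochberg adjustment over 14216 genes. Replicate numbers did not pair the libraries. Alternatives were DESeq2 size factors, library totals, DESeq2 1.42.0, limma-voom (limma 3.58.1), other filters, an adjusted p under 0.01, a replicate block, a length offset (lowess span 0.3) on spans from a GRCr8 gene table that matched 92.0% of tested genes, and each library left out. The Gata6 to Gata4 ratio used counts plus 0.5.

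The members, gene lists, tests and alternatives were chosen with earlier results of these data known. Named were the members, Tug1, fixed partner genes and, from each list, up to 3 called genes in each direction with the most extreme log2 fold change among those at a mean of 5 CPM or more whose groups did not overlap. Of the genes so named from the marker lists, a part is given. A gene that met the rule is not reported here.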

Additional observations from a re-analysis of the deposited data

How the results depend on the processing

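Of 51 named and tested genes, 46 kept their direction and call in all 16 alternatives. Myocd was at -0.0912 with the length offset, -0.0957 with that offset and the replicate block, and ranged from -0.0022 (without knockdown replicate 1) to 0.20 with a library left out. Mrtfb was at -0.221 and -0.225 in the same fits and ranged from -0.0655 (without knockdown replicate 2) to 0.13. The members called numbered 3 in each alternative except without control replicate 3, where they numbered 4. With a library left out, the log2 ratio of Gata6 to Gata4 differed by -0.57 to -0.41. The count of all called genes ran from 7353 to 8987. Same-numbered libraries did not deviate together (correlations across genes of -0.00531, 0.0298 and 0.027), and with the replicate block 3 members were called, Gata6 at -0.75, Hand2 at -0.68 and Srf at -0.21. Scaling by library totals shifted the median over tested genes to 0.06. Genes at or under 3 counts are limited by depth. What causes these shifts was not tested.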
